A study of Mus musculus with 5 samples.

Results

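The genes that move salt and water across the luminal epithelium were followed in laser-dissected luminal layers of the pregnant mouse uterus. The set consisted of 9 genes named for this function, out of 23420 in the count table, and all 9 were found by symbol. They were Scnn1a, Scnn1b and Scnn1g for the epithelial sodium channel (ENaC), Sgk1 and Nedd4l for its regulation, Cftr and Slc26a4 for anion exit, Slc12a2 for chloride entry and Atp1b1 for the sodium pump. All animals were wildtype C57BL/6N females, with day 1 taken as the day of the vaginal plug and no gene deletion or hormone treatment named in the labels. The 5 RNA-seq libraries came from the mornings of days 3 and 4 (D3 and D4), the evening of day 4, and the morning of day 5 (D5), the last sampled remote from the attached embryo (labelled M pole) and around it (labelled AM pole), and for day 5 mice the submitters describe an intravenous blue dye that marks implantation sites. The D5 libraries thus differ in labelled pole as well as in nearness to the embryo, and these cannot be told apart. Each condition had 1 library, so differences between conditions could not be checked against replicates and no p-value is given. Whether several mice were pooled into a library is not given in the sources used here.

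In absorbing epithelia, sodium enters through ENaC at the apical membrane and leaves through the sodium pump at the basolateral side, and water follows. In secreting epithelia, the Slc12a2 cotransporter loads chloride from the basolateral side, and Cftr, a chloride and bicarbonate channel regulated by cAMP, lets it out at the apex. The uterine lumen fills with fluid under estrogen and loses it under progesterone before implantation, when the epithelium closes around the blastocyst. ENaC, its kinase Sgk1 and Cftr have all been studied in this fluid switch.

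Total counts ranged from 15334674 to 19529491 per library. Levels are given as CPM, counts relative to library size, with the sizes scaled by TMM, a method that assumes most genes do not differ between libraries, and levels of different genes are compared only per length (RPKM). Differences are given as log2 CPM with a prior count of 2, and brackets hold a 95% interval for the count ratio (Clopper-Pearson, exact). Intervals cover the counting error of reads only. They treat reads as independent, but reads without molecular identifiers are not independent molecules, so the intervals can be too narrow. A gene was called higher or lower past 2-fold, a log2 difference beyond 1, within the set of 12915 genes whose mean reached 1 CPM. Of the members, 8 passed this filter. Scnn1g, at a mean of 0.888 CPM, did not pass and is left out of the counts and medians given for each comparison. Slc26a4 passed only through the library around the embryo, without which its mean was 0.783 CPM. In bulk tissue, fewer cells of a type and less RNA per cell cannot be told apart.

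The labelled tissue was checked against marker lists. All 10 listed epithelial markers, Krt8, Epcam and Cdh1 among them, were counted in every library. The summed level ran from 3165 CPM remote from the embryo to 6525 CPM around it, but the members differed in direction. Krt19 stood at 763 CPM on D4 morning, 38.0 remote from the embryo and 159 around it, and Elf3 at 279, 48.0 and 650 CPM. Msx1 was lowest around the embryo (97.1 CPM), where Epcam (1524 CPM) and Cdh1 (1316 CPM) were highest. The library around the embryo stood apart in other markers. Cdx2, Nanog, Pou5f1 and Gata4, which mark blastocyst cells, had 0 counts in the other 4 libraries and 22, 10, 68 and 54 counts around the embryo. The blastocyst list without Sox17, which was abundant in every library, summed to between 4.78 and 12.8 CPM in the other libraries and to 107 CPM around the embryo. Of the decidual list, Prl8a2 and Prl3c1 were at 0 elsewhere and had 86 and 20 counts around the embryo, while the summed list was at 136 CPM there and between 115 and 191 CPM elsewhere. The summed smooth muscle list stood at 395 CPM around the embryo, most of it Des with 6090 counts, against 10.9 to 31.8 CPM elsewhere, and the endothelial list at 99.8 CPM against 12.3 to 45.6 CPM. Of the endothelial markers, Cdh5 alone was at 71.4 CPM around the embryo, whereas Kdr (1.05 CPM) and Emcn (1.57 CPM) were at their lowest there. The summed stromal list was lowest around the embryo, at 393 CPM against 505 to 588 CPM, but its members differed in direction. Col1a2, Col3a1, Dcn and Lum were lowest there, with Col3a1 at 42.3 CPM and Dcn at 14.1 CPM, while Hand2 (132 CPM), Col1a1 (46.2 CPM), Pdgfra (37.7 CPM) and Pdgfrb (13.3 CPM) were highest there. The leukocyte and red cell list was also lowest around the embryo, at 50.1 CPM against 230 to 347 CPM. The 7 glandular markers found summed to between 32.2 and 85.4 CPM, with Prss28 and Prss29 at 0 before day 5. The part of embryonic, decidual, stromal, muscle and endothelial RNA in the results around the embryo was not tested.

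The ENaC subunits differed in where their transcripts were high and low. Scnn1a encodes the alpha subunit, which alone can form a weakly conducting channel (chromosome 6 of GRCm38/mm10, 125321340 to 125344942). It had 206 counts on D3 morning, 349 on D4 morning, 126 on D4 evening, 154 on D5 remote from the embryo and 56 around it. In CPM, these were 11.9, 19.4, 7.96, 8.26 and 3.25. The level was thus highest on D4 morning and lowest around the embryo, and the D4 evening library and the library remote from the embryo did not differ beyond counting error (0.05 [-0.30, 0.40]). From D4 morning, Scnn1a was lower by evening (-1.27 [-1.59, -0.99]), remote from the embryo (-1.22 [-1.52, -0.96]) and around it (-2.54 [-3.01, -2.17]). With library totals in place of TMM, the difference remote from the embryo was -0.95 and no longer past 2-fold. Between the D5 libraries, Scnn1a was 2.54-fold lower around the embryo (-1.31 [-1.81, -0.89]).

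Scnn1b encodes the beta subunit, which with gamma raises channel number at the membrane (chromosome 7, 121865038 to 121918728). Its counts were 43 on D3 morning, 120 on D4 morning, 88 on D4 evening, 14 remote from the embryo and 333 around it. This was the member with opposite calls at the D5 sites, lower remote from the embryo (-2.97 [-4.07, -2.35]) and higher around it (1.52 [1.23, 1.85]) than on D4 morning. The library around the embryo was 25.8-fold above the one remote from it. From D3 to D4 morning Scnn1b was higher by 1.39 [0.92, 1.97], while the morning and evening of day 4 did not differ beyond counting error (-0.26 [-0.68, 0.14]).

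Scnn1g encodes the gamma subunit and lies near Scnn1b on chromosome 7 (121734507 to 121768477). It had 0 counts in each of the D3 and D4 libraries, 7 remote from the embryo and 70 around it. The floor of 3 counts allows up to 0.173, 0.167 and 0.190 CPM on D3 morning, D4 morning and D4 evening. Scnn1g was at least 24.3-fold higher around the embryo than on D4 morning, set against that floor, and 10.8-fold higher than remote from the embryo (3.09 [2.32, 4.80]).

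Per length, Scnn1b held most of the subunit transcripts in 1 library and Scnn1a the larger share in the others. On D4 evening the counting interval of their ratio did not exclude equal levels. The summed level of the subunits was 4.26 RPKM on D3 morning, 7.90 on D4 morning, 4.23 on D4 evening, 2.75 remote from the embryo and 9.09 around it. Scnn1a held 79.6%, 70.3%, 53.8% and 85.8% of this sum in the first 4 libraries and 10.2% around the embryo. Scnn1b held 74.7% around the embryo and Scnn1g 15.1%. The RPKM ratio of Scnn1b to Scnn1a was between 0.112 [0.0597, 0.193] and 0.858 [0.646, 1.14] in the other libraries and 7.31 [5.49, 9.88] around the embryo. The interval around the embryo overlapped none of the others, and neither did that of D4 evening, which held the ratio of 0.858. These intervals cover counting error only.

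**Figure D1:**
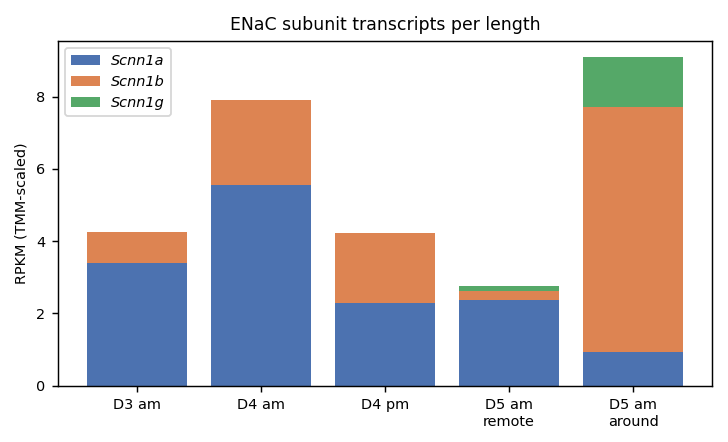
Stacked bars give the RPKM (TMM-scaled) of Scnn1a, Scnn1b and Scnn1g in each of the 5 libraries, 1 library per bar and without error bars. The alpha subunit fills the larger part of the bars up to D5 remote from the embryo, with 53.8% against 46.2% for beta on D4 evening. The beta subunit fills most of the bar around the embryo, where the sum reaches 9.09 RPKM.

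Sgk1, the serum- and glucocorticoid-induced kinase, keeps ENaC at the membrane by phosphorylating Nedd4l (chromosome 10, 21882184 to 21999902). It had 13772 counts on D3 morning, 5105 on D4 morning, 481 on D4 evening, 5584 on D5 remote from the embryo and 7110 around it, or 793, 284, 30.4, 299 and 413 CPM. The evening library was far below all others. Sgk1 was lower on D4 morning than on D3 morning (-1.48 [-1.53, -1.43]) and lower by a further 9.35-fold in the evening (-3.22 [-3.36, -3.09]). On day 5, it was 9.85-fold above the evening level remote from the embryo and 13.6-fold above it around the embryo. Against D4 morning, these levels were within 2-fold, at 0.07 [0.02, 0.13] and 0.54 [0.49, 0.59].

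Sgk1 is a textbook target of glucocorticoid and progesterone receptors, and RefSeq (GRCm38.p6) lists 6 start sites for it, so windows of 250 bases before and 50 after each start were searched. Windows were read for 6 members, 11 in all. Both strands were searched, except for the TATA letters. The letters were AGAACA, 3 free bases and TGTTCT for a full receptor element, TGTTCT or AGAACA for its half-site, TTCNNNGAA for a Stat site, TGACNTCA or TGANGTCA for a cAMP response element and TATAAA on the gene's strand, with the half-site lying inside the full element. The full element was found in 3 of the 32851 windows of the table (0.00913%), and 1 of these belonged to Sgk1. The half-site was in 19.0%, the Stat site in 8.30%, the cAMP element in 8.83% and the TATA letters in 8.32% of all windows. The window at chr10:21993640-21993939 (plus strand) is shown because it holds the full element, at base 62, with the receptor letters in capitals, and the counts per gene do not show which start was used.
Sgk1: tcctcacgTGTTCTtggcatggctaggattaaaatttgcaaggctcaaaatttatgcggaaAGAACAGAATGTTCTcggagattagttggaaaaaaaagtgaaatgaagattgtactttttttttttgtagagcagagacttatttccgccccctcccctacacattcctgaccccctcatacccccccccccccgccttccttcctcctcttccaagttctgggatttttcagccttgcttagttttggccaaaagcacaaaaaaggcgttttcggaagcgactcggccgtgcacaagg

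Among the other Sgk1 windows, the one starting at 21881934 held a Stat site at base 28 and a half-site at base 56, the one starting at 21991973 held a half-site at base 238 and TATA letters at base 223, and the one starting at 21994416 held TATA letters at base 240. The windows of Scnn1b, Scnn1g and Atp1b1 held none of the searched letters. A match is a run of letters and not a measured binding site.

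Cftr, the cAMP-regulated anion channel (chromosome 6, 18170687 to 18322769), was highest on D3 morning and next highest around the embryo. Its counts were 1039 on D3 morning, 190 on D4 morning, 226 on D4 evening, 183 remote from the embryo and 666 around it, or 59.8, 10.6, 14.3, 9.81 and 38.7 CPM. D4 morning was 5.65-fold below D3 morning (-2.49 [-2.73, -2.28]). On day 5, Cftr did not differ from D4 morning beyond counting error remote from the embryo (-0.11 [-0.41, 0.19]) and was 3.66-fold higher around it (1.86 [1.64, 2.11]). The library around the embryo was 3.94-fold above the one remote from it. The Cftr window (chr6:18170437-18170736, plus strand) is shown for the cAMP response element letters, in capitals at base 264, which is past the start site.
Cftr: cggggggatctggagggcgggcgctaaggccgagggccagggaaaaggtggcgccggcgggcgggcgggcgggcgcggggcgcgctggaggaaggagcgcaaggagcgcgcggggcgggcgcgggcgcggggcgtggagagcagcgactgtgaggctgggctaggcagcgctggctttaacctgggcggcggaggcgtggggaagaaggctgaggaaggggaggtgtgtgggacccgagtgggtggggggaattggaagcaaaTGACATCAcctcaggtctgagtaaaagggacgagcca

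Slc26a4 encodes pendrin, an apical exchanger of chloride for bicarbonate or iodide (chromosome 12, 31519819 to 31559969). It had 19 counts on D3 morning, 0 on D4 morning, 0 on D4 evening, 38 remote from the embryo and 1116 around it. Around the embryo it stood at 64.8 CPM, at least 388-fold above D4 morning and 31.8-fold above the library remote from the embryo (4.91 [4.53, 5.50]). Remote from the embryo it was at least 12.2-fold above D4 morning, and D4 morning was at least 6.55-fold below D3 morning. Per length, Slc26a4 around the embryo (21.0 RPKM) was above Cftr in the same library (6.13 RPKM), whereas on D3 morning it was below Cftr (0.355 against 9.49 RPKM). The Slc26a4 window (chr12:31559935-31560234, minus strand, written in the gene's direction) is shown because this member had the widest range, and its capitals mark a half-site at base 38 and TATA letters at base 220.
Slc26a4: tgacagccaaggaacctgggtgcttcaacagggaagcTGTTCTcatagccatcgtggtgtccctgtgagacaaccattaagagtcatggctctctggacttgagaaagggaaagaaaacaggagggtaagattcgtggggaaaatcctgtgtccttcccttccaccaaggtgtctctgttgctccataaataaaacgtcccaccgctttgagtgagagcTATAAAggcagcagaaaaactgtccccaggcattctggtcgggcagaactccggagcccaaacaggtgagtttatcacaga

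**Figure D2:**
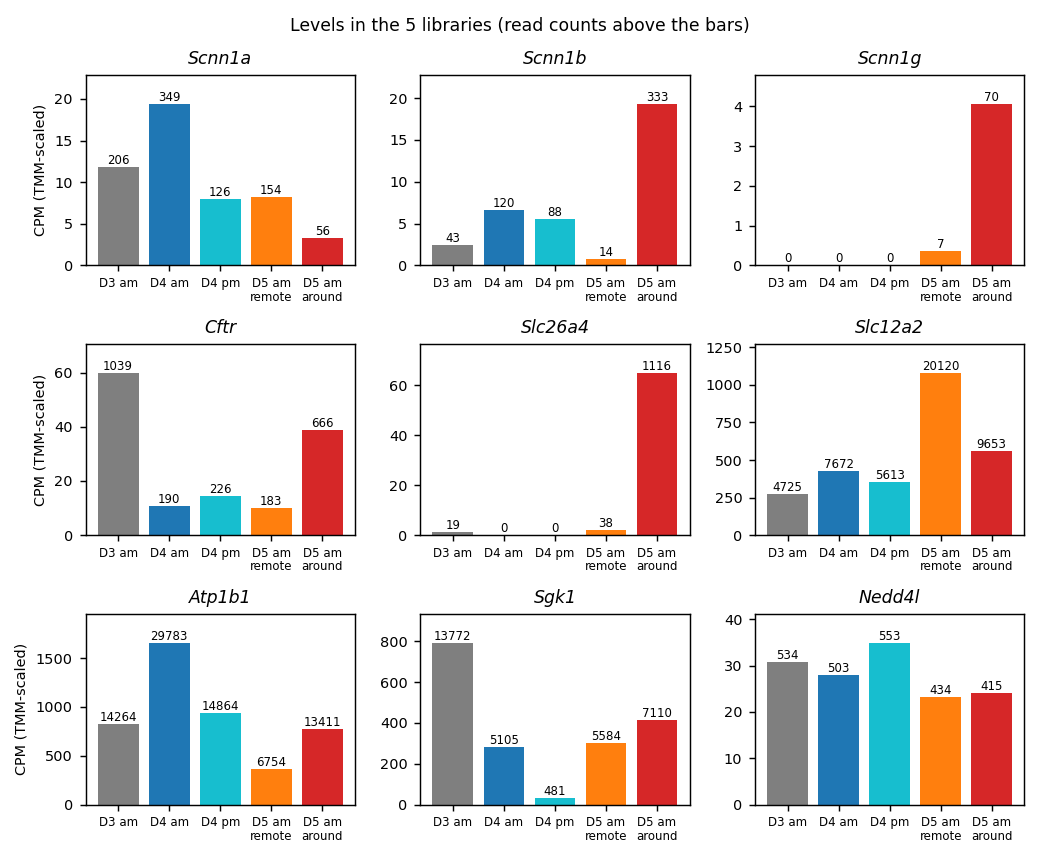
Bars give the TMM-scaled CPM of the 9 members in the 5 libraries (am for morning, pm for evening, remote and around for the position relative to the embryo), on axes that start at 0 and differ between panels, with the read counts above. Scnn1b, Scnn1g and Slc26a4 are highest around the embryo, Slc12a2 is highest remote from it, and Sgk1 is lowest on D4 evening.

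The ion pump and the loading cotransporter were the most abundant members beside Sgk1. Slc12a2 encodes Nkcc1, the sodium, potassium and chloride cotransporter that supplies chloride for secretion. The gene lies on chromosome 18 (57878678 to 57946821). Its counts were 4725 on D3 morning, 7672 on D4 morning, 5613 on D4 evening, 20120 remote from the embryo and 9653 around it, or 272, 427, 355, 1079 and 560 CPM. Slc12a2 was highest remote from the embryo, 2.53-fold above D4 morning (1.34 [1.30, 1.37]), and within 2-fold of D4 morning around the embryo (0.39 [0.35, 0.44]). Between the D5 libraries it was lower around the embryo by a log2 difference of -0.94 [-0.98, -0.91], which became -1.26 with library totals.

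Atp1b1 encodes the beta subunit that carries the sodium pump to the membrane (chromosome 1, 164437267 to 164458355), and 30 bases of its exons overlap Nme7 on the other strand. Its counts were 14264 on D3 morning, 29783 on D4 morning, 14864 on D4 evening, 6754 remote from the embryo and 13411 around it, or 821, 1658, 940, 362 and 779 CPM. D4 morning was the highest library and the one remote from the embryo the lowest, 4.58-fold apart (-2.19 [-2.23, -2.16]). Around the embryo the difference from D4 morning was -1.09 [-1.12, -1.06]. The difference of D4 from D3 morning (1.01 [0.98, 1.04]) and that between the D5 libraries (1.10 [1.06, 1.15], higher around the embryo) were just past 2-fold, and with library totals they were 0.71 and 0.79. Remote from the embryo, Slc12a2 and Atp1b1 were thus past 2-fold in opposite directions.

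Nedd4l encodes the ubiquitin ligase that removes ENaC from the membrane. It is also on chromosome 18 (64887756 to 65217826). Its counts were 534 on D3 morning, 503 on D4 morning, 553 on D4 evening, 434 remote from the embryo and 415 around it, or 30.7, 28.0, 35.0, 23.3 and 24.1 CPM. Its range of 0.58 on the log2 scale was the narrowest of the members, and none of its differences passed 2-fold. D3 and D4 morning did not differ beyond counting error (-0.13 [-0.31, 0.04]), nor did the D5 libraries (0.05 [-0.15, 0.25], or -0.26 with library totals, which turned the direction). Without a second library per condition, a change within 2-fold can neither be shown nor dismissed. A change past 2-fold cannot be checked against replicates either.

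**Figure D3:**
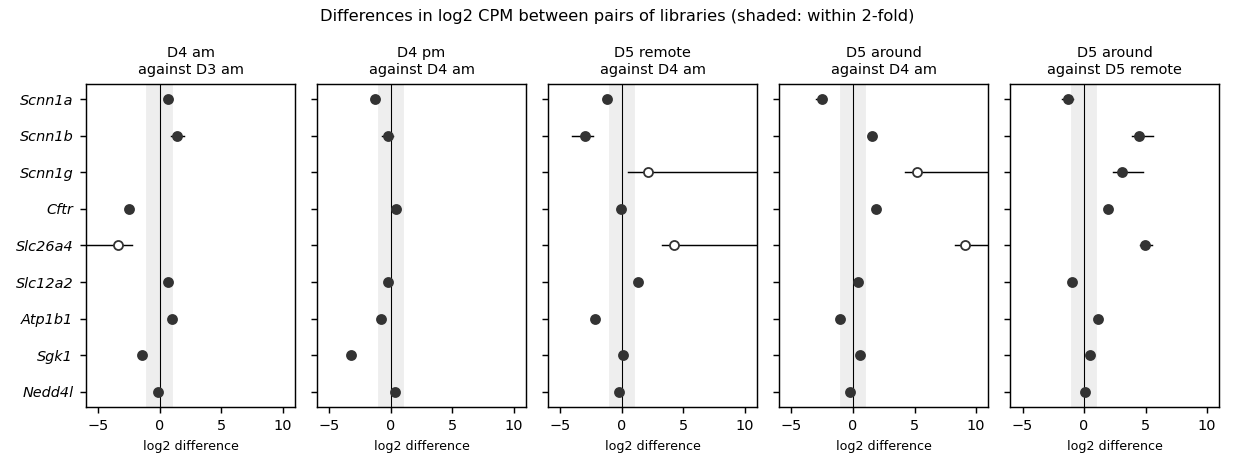
Points give the difference in log2 CPM of each member for 5 pairs of libraries, lines the 95% counting interval, open points a comparison with a library at 0 counts, where the fitted value depends on the prior count, and the shaded band a difference within 2-fold. Pairs with 0 counts in both libraries have no point, and Scnn1b lies to the left of the band remote from the embryo (-2.97) and to its right around it (1.52).

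Of the 5 comparisons, 4 share the D4 morning library, so their directions are not independent. From D3 to D4 morning, Scnn1b and Atp1b1 were called higher, 2 of the 8 members that passed the filter, where 7.47% of all genes were. Cftr, Slc26a4 and Sgk1 were called lower, 3 of the 8, beside 11.5% of all genes, and the median difference of the 8 was 0.26 against 0.00 for all genes. By D4 evening 0 of the 8 were called higher than in the morning (7.21% of all genes) and Scnn1a and Sgk1 were called lower (6.95% of all genes). The median of the 7 members with a value was then -0.27 against 0.00.

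On D5 remote from the embryo, Slc26a4 and Slc12a2 were called higher than on D4 morning, 2 of 8 beside 14.9% of all genes. Scnn1a, Scnn1b and Atp1b1 were called lower, 3 of 8 beside 14.3%, and the median difference was -0.19 against 0.00. Around the embryo, Scnn1b, Cftr and Slc26a4 were called higher, 3 of 8 beside 20.7% of all genes, and Scnn1a and Atp1b1 lower, 2 of 8 beside 22.6%, with a median of 0.46 against -0.03. Between the D5 libraries, Scnn1b, Cftr, Slc26a4 and Atp1b1 were called higher around the embryo than remote from it, 4 of 8 beside 13.4%. Scnn1a was called lower, 1 of 8 beside 15.0%, and the median was 0.78 against -0.05. Slc26a4 was among the 8 only through the library around the embryo, so its calls there follow in part from the filter. It enters these shares and medians. The Atp1b1 call between the D5 libraries was lost with library totals.

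The genes with the most similar patterns were sought in the 8842 genes whose mean reached 10 CPM, by the root-mean-square difference of log2 CPM, centred per gene, over the 5 libraries. For Slc26a4, the member with the widest range (9.14 on the log2 scale), they were Pla2g7 (0.49), Tnfrsf23 (0.73) and Gjb2 (0.85). Gjb2, a gap junction protein, had 387 counts on D4 morning, 32323 remote from the embryo and 239366 around it. For Scnn1g, with a range of 5.18, they were Hand2 (0.28), Glrx (0.30) and Bnip3 (0.31). Scnn1g had 0 counts in the D3 and D4 libraries, and Slc26a4 in both D4 libraries. The ranges and distances of both genes therefore depend on the prior count. Tnfrsf23 and Hand2 reached the mean of 10 CPM only through the library around the embryo, so their match there follows in part from the filter. Hand2, a stromal transcription factor, had 389 counts remote from the embryo and 2282 around it, against 70 to 102 before day 5. For Sgk1, with a range of 4.70, the nearest were Cacnb3 (0.78), Slc40a1 (0.81) and Fam109a (0.83), all lowest on D4 evening as well. Slc40a1, the iron exporter ferroportin, had 542 counts on D4 morning, 214 in the evening and 578 remote from the embryo.

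A wider list of 75 genes of epithelial salt and water transport was chosen for function, but with earlier results of these data known. Its shares are therefore not independent of these data. The list was read for the same comparisons, and 58 genes passed the filter. Of these, Kcnn4, Clca2 and Slc26a9 passed only through the D3 morning library, Clca1 through D4 evening and Kcnma1 through the library around the embryo. Calls of these genes that involve those libraries follow in part from the filter. Remote from the embryo 10 were called higher and 16 lower than on D4 morning, and around it 20 were higher and 18 lower, shares of 17.2% and 27.6%, and of 34.5% and 31.0%. Of all genes, 14.9% and 14.3% were called remote from the embryo and 20.7% and 22.6% around it, so that the share higher remote from the embryo was near that of all genes. With library totals the split remote from the embryo was 12 higher and 12 lower. The median differences were -0.01 and -0.06. From D3 to D4 morning 8 were higher and 7 lower, or 13.8% and 12.1% beside 7.47% and 11.5% of all genes (median 0.12), and library totals turned this balance to 3 higher and 10 lower. By D4 evening 6 were higher and 2 lower, or 10.3% and 3.45% beside 7.21% and 6.95% of all genes (median 0.06), with Slc26a9 among the 6 on 2 counts against 0. Between the D5 libraries 15 were higher around the embryo and 12 lower, or 25.9% and 20.7% beside 13.4% and 15.0% of all genes (median 0.31), and library totals turned this balance too, to 9 higher and 15 lower. The counts by role below are of few genes and stand beside the same shares of all genes, and no role is said to stand apart from them.

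Among the 16 ENaC processing and regulatory genes that passed, remote from the embryo 2 were higher and 5 lower, beside 14.9% and 14.3% of all genes, and around it the numbers were 4 and 5, beside 20.7% and 22.6% of all genes. Tmprss4, a membrane serine protease, stood at 39.9 CPM on D4 morning, 29.9 remote from the embryo and 457 around it (3.51 [3.41, 3.63] around). St14, the protease matriptase, was at 122, 235 and 431 CPM in the same order, and Tmprss2 at 233, 509 and 110 CPM. Spint1, an inhibitor of such proteases, was 3.37-fold above D4 morning remote from the embryo (1.75 [1.68, 1.83]) and at 312 CPM around it, and Plat, the tissue plasminogen activator, stood at 217, 34.2 and 55.4 CPM in the same order. Hsd11b2, the enzyme that inactivates glucocorticoids and so protects the mineralocorticoid receptor, had 423 counts on D4 morning, 124 remote from the embryo and 30 around it. Tsc22d3, a steroid-induced gene also called Gilz, was at 712, 300 and 137 CPM (-2.38 [-2.44, -2.31] around the embryo). The mineralocorticoid receptor gene Nr3c2, which did not pass the filter, had between 0 and 6 counts in every library, and the glucocorticoid receptor gene Nr3c1 between 288 and 563.

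Of the 12 sodium pump and FXYD genes, 6 passed the filter, and of these 0 were higher and 2 lower remote from the embryo, beside 14.9% and 14.3% of all genes, and 1 was higher and 2 lower around it, beside 20.7% and 22.6% of all genes. Fxyd4, a small regulator of the pump, had 8472 counts on D3 morning, 19877 on D4 morning, 10203 on D4 evening, 169 remote from the embryo and 138 around it, so the D5 libraries were both far below the others. It was 122-fold lower remote from the embryo (-6.91 [-7.16, -6.71]) and 138-fold lower around it (-7.09 [-7.36, -6.87]) than on D4 morning. Fxyd5 was higher around the embryo (2.43 [2.14, 2.79]).

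Of the 17 chloride and bicarbonate genes that passed, remote from the embryo 5 were higher and 2 lower, beside 14.9% and 14.3% of all genes, and around it the numbers were 9 and 4, beside 20.7% and 22.6% of all genes. Car12, a membrane carbonic anhydrase, had 175 counts on D4 morning, 1569 on D4 evening, 2297 remote from the embryo and 16823 around it, and was 12.6-fold and 100.2-fold above D4 morning at the D5 sites. Car2, a cytosolic carbonic anhydrase, was at 1958, 230 and 439 CPM in the D4 morning library, remote from the embryo and around it. The intracellular channel protein gene Clic4 was 42.7-fold higher around the embryo (5.41 [5.30, 5.54]), and Clic5 8.82-fold lower. Slc26a9, an anion transporter, had 0 counts on D4 morning, 17 remote from the embryo and 38 around it. Clca2 had 11 counts on D4 morning and 0 in both D5 libraries.

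Of the 9 cotransport and WNK genes that passed, remote from the embryo 2 were higher and 3 lower, beside 14.9% and 14.3% of all genes, and around it the numbers were 3 and 3, beside 20.7% and 22.6% of all genes. Wnk4, a kinase that regulates chloride cotransporters, had 524 counts on D4 morning, 70 remote from the embryo and 28 around it. Stk39, the kinase Spak that phosphorylates Slc12a2, had 61, 182 and 434 counts in the same order, and its relative Oxsr1 2443, 771 and 1023. The potassium-chloride cotransporter genes differed in direction, with Slc12a4 at 5.85, 16.6 and 38.5 CPM and Slc12a7 at 28.8, 11.2 and 6.68 CPM.

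Of the 10 potassium channel and sodium-proton exchange genes that passed, remote from the embryo 1 was higher and 4 lower, beside 14.9% and 14.3% of all genes, and around it the numbers were 3 and 4, beside 20.7% and 22.6% of all genes. Slc9a2, a sodium-proton exchanger of apical membranes, had 78 counts on D4 morning, 391 remote from the embryo and 2322 around it (2.24 [1.92, 2.64] and 4.92 [4.63, 5.30]). Kcnma1, the large-conductance potassium channel, had 6, 0 and 91 counts, and passed the filter only through the library around the embryo. Kcnk1 was at 528, 483 and 98.8 CPM, and Kcne3, a partner subunit of Kcnq1, at 115, 44.6 and 15.2 CPM. Kcnk5 had 207 counts on D4 morning, 52 remote from the embryo and 102 around it. In these lists too, the library around the embryo carried the blastocyst and decidual markers given above.

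**Figure D4:**
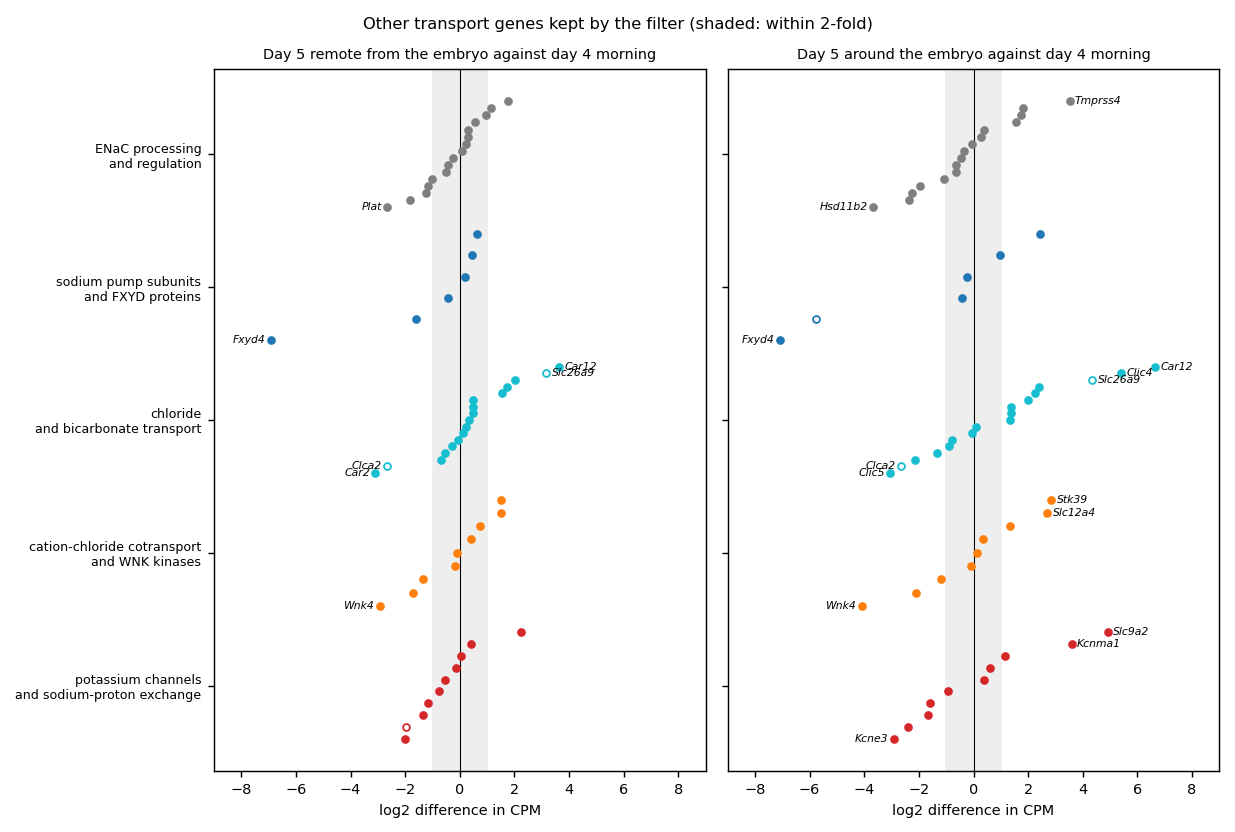
Each point is 1 of the 58 transport genes that passed the filter, placed by its difference in log2 CPM from D4 morning (horizontal axis) and grouped by role (vertical axis), remote from the embryo on the left and around it on the right, with names for most differences beyond 2.5 and open points where a library was at 0 counts. Fxyd4 lies farthest to the left in both panels and Car12 farthest to the right.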

How the data were processed

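RNA of laser-microdissected luminal layers was amplified with the SMART-seq v.4 kit, and paired-end reads were aligned to GRCm38/mm10 with HISAT2 and counted with featureCounts of Subread 2.0.0, per the study's methods and the submitters' processing notes. The values deposited by the authors are raw counts of reads for each gene in 5 libraries, without normalization. The annotation, strand setting and treatment of reads with several alignments are not given in the sources used here. The gene length in the same table was used for RPKM.

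Counts were scaled by TMM (edgeR 4.0.16, R 4.3.3), and DESeq2 1.42.0 size factors served as an alternative. Other steps used Python 3.11.15, pandas 2.3.3, numpy 2.4.6, scipy 1.17.1 and matplotlib 3.10.9. The study's fold threshold was kept, but with 1 library per condition its false discovery rate was not applied. A fold against a library at 0 is set against 3 counts in that library and given as a lower bound. Intervals and calls were checked on simulated data.

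All members were named. From each role of the wider list, the 2 genes past 2-fold with the largest difference in each direction on day 5 against D4 morning were named, and for the 3 members with the widest range the 3 nearest patterns. A gene that this rule selects is not reported here. Nr3c1 and Nr3c2 were added after their values were seen. The members and lists were chosen with earlier results of these data known. Promoter windows are those of RefSeq, and those of members on chromosome 18 are not shown. The motifs were chosen with the windows at hand. Alternatives were other scalings, priors, filters, thresholds and log2(RPKM + 1).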

Additional observations from a re-analysis of the deposited data

Results flagged for a closer look

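Scnn1b was past 2-fold in opposite directions at the D5 sites. Against D4 morning its log2 difference was -2.97 in the library remote from the embryo (14 counts against 120) and 1.52 in the library around it (333 counts). With 1 library per site, the difference between the sites was not tested. The sites also differ in labelled pole, which cannot be told apart from nearness to the embryo. Both values share the D4 morning library. The directions were kept under each alternative tried, with log2(RPKM + 1) giving the smallest differences, -1.41 and 1.22. The part of blastocyst and decidual RNA in the library around the embryo was not tested.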

How the results depend on the processing

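No paired analysis was possible because each condition had 1 library. No difference of a member past 2-fold reversed under any of the alternatives tried. Over all 9 members 25 differences were past 2-fold, 3 of them of Scnn1g, which the counts by comparison leave out. Of the 25, 0 were lost under DESeq2 size factors, upper-quartile factors or a prior count of 0.5, 3 were lost and 1 gained with library totals, 2 lost and 1 gained with library totals without Rn45s and Lars2, and 6, 1 of them of Scnn1g, lost on log2(RPKM + 1), a scale that compresses low genes. Library totals moved the median of all genes by -0.29 from D3 to D4 morning, 0.28 on D5 remote from the embryo and -0.36 between the D5 libraries. A change within 2-fold in 1 library of each condition cannot be judged, and a larger one cannot be checked against replicates. At the depth of these libraries fewer than 3 counts are at the floor.

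Counts below are of genes past 2-fold. With library totals, from D3 to D4 morning 1 member, 3 genes of the wider list (10 lower) and 539 of all genes (2209 lower) were higher, and between the D5 libraries 2 members were lower and 9 of the wider list higher (15 lower), while all genes split into 1289 higher and 2808 lower. On D5 remote from the embryo the same scaling gave 12 higher and 12 lower in the wider list and 2690 higher and 1401 lower over all genes. Without Rn45s and Lars2 in the totals, from D3 to D4 morning 1 member, 5 of the wider list (9 lower) and 734 of all genes (1811 lower) were higher, and between the D5 libraries 2 members were lower and 9 of the wider list higher (15 lower), with 1307 higher and 2709 lower over all genes.

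On log2(RPKM + 1), D4 against D3 morning gave 1 member, 2 list genes and 409 of all genes higher and 753 of all genes lower. D4 evening gave 3 list genes and 372 of all genes higher, and 1 and 299 lower. D5 remote from the embryo gave 1 member and 1180 of all genes higher and 1221 lower. Between the D5 libraries 9 list genes were higher, and 0 members, 6 list genes and 936 of all genes lower. With a log2 difference beyond 2, D4 against D3 morning gave 0 members, 1 list gene and 154 of all genes higher, and 4 list genes and 531 of all genes lower. D4 evening gave 3 list genes and 308 of all genes higher, and 1 member, 0 list genes and 180 of all genes lower. D5 remote from the embryo gave 1 member, 4 list genes and 742 of all genes higher, and 6 list genes and 749 of all genes lower. D5 around the embryo gave 1 member, 12 list genes and 1358 of all genes higher, and 1 member and 1292 of all genes lower. Between the D5 libraries 2 members, 5 list genes and 757 of all genes were higher, and 0, 4 and 641 lower.

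Where the counting interval also had to lie beyond 2-fold, D4 against D3 morning gave 0 members, 3 list genes and 457 of all genes higher and 904 of all genes lower. D4 evening gave 499 of all genes higher, and 1 member, 1 list gene and 401 of all genes lower, and between the D5 libraries 0 members and 1171 of all genes were lower. With a mean of at least 5 CPM, D4 against D3 morning gave 566 of all genes higher, and 3 list genes and 872 of all genes lower. D4 evening gave 3 list genes and 550 of all genes higher and 465 lower, and between the D5 libraries 1264 were lower. Without a filter, D4 against D3 morning gave 1686 of all genes higher and 2682 lower, D4 evening 1932 higher, 1653 lower and 5 list genes lower, D5 around the embryo 4321 higher, and the D5 libraries against each other 3110 higher. The filters and thresholds change which genes are counted by construction, and for the other settings the cause was not tested.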

Other observations

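From D3 to D4 morning, 1 of the 17 chloride and bicarbonate genes was higher and 5 were lower. Of the 10 potassium channel and sodium-proton exchange genes, 4 were higher and 1 lower, with Kcnma1 among the 4 on 6 counts against 0. Of all genes, 7.47% were higher and 11.5% lower. These are few genes, and no role is said to stand apart. With library totals the wider list turned to 3 higher and 10 lower in this comparison. The genes named here lie outside the naming rule and were chosen after their values were seen. Of the higher genes, Slc26a6 had 9 counts on D3 morning and 48 on D4 morning (5.16-fold higher), Kcnk5 had 59 and 207 (3.39-fold higher) and Slc9a2 had 34 and 78 (2.22-fold higher). Of the lower genes, Kcnn4, a calcium-activated potassium channel, had 173 counts on D3 morning and 6 on D4 morning (29.8-fold lower), Clca2 had 159 and 11 (14.9-fold lower), and Clic6 had 140 and 8 (18.1-fold lower). Slc26a9 had 100 and 0 counts, at least 34.5-fold lower. These 4 lower genes had at most 49 counts in the later libraries, but each was called higher again in a later library than on D4 morning. Clic6, Slc26a9 and Kcnn4 had 49, 38 and 15 counts around the embryo, and Clca2 had 28 on D4 evening. Car12 and Clic4, the other lower chloride and bicarbonate genes, had 426 and 1564 counts on D3 morning and 175 and 606 on D4 morning. Around the embryo they had 16823 and 24829. Kcnn4, Clca2 and Slc26a9 passed the filter only through the D3 morning library, so their being lower on D4 morning follows in part from the filter.

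By D4 evening 6 of the 58 list genes were higher than in the morning and 2 lower, beside 7.21% and 6.95% of all genes. Kcnq1 (275 counts in the morning and 71 in the evening) and Slc9a2 (78 and 22) were the lower ones. The higher genes named next were chosen after their values were seen. Slc26a6, an anion exchanger, had 48 counts in the morning and 447 in the evening (10.6-fold higher), Car12 had 175 and 1569 (10.2-fold higher), and Kcnk5 had 207 and 497 (2.73-fold higher). Kcnk5 then had 52 counts remote from the embryo and 102 around it. Each of these values rests on 1 library.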
